A study of Mus musculus with 6 samples.

Results

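Syndecans and glypicans are the main families of heparan sulfate proteoglycans at the cell surface, and 10 genes of these families, 4 syndecans and 6 glypicans, were followed here in neuroblastoma xenografts. They were chosen by gene symbol. A gene was measured where the platform annotation gave a probe set that symbol and no other, and the brightest such probe set over the 6 arrays stood for the gene. This left 9 of the 10 genes, SDC1, SDC2, SDC3 and GPC1 to GPC6, of 18417 named genes measured in all. SDC4, the syndecan of focal adhesions, has only a probe set that also carries the symbol ROS1, so no value is given for it.

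Syndecans span the membrane and carry heparan sulfate chains on the part outside the cell, while a short conserved tail inside binds scaffold proteins such as syntenin. Glypicans have a folded core protein with the chains placed close to the membrane, and a lipid anchor (GPI) in place of a tail. The sulfated chains bind growth factors, morphogens and chemokines, among them CXCL12, the ligand of CXCR4, and present them to their receptors. In the nervous system members of both families take part in axon growth and synapse formation, and GPC2 is studied as a surface target for immunotherapy of neuroblastoma.

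The treated group was 3 NSG mice that received BL-8040, an inhibitor of CXCR4, at 400 µg under the skin on 14 consecutive days from day 7 after tumour cell injection. The other group was 3 control NSG mice; the labels state neither their own treatment nor the age of the mice. All 6 mice carried a tumour from SK-N-BE(2) cells, 1 established human neuroblastoma line with amplified MYCN, placed in the adrenal gland, and the strain lacks T, B and natural killer cells. RNA of each tumour was read on 1 human expression array as log2 signal per probe set.

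The array carries probes for human transcripts; how much host RNA bound to them was not measured. Array medians over the named genes lay between 6.01 and 6.07 log2 units, and BL-8040 replicate 3 stood apart on the first principal component, at -22.7 against -0.74 to 10.1 for the other 5 arrays. All 9 measured markers of neuroblastoma cells (of 10 listed) had a mean signal above that of the median gene, between percentile 71.9 and 99.9 of all genes. Of 10 fibroblast and pericyte markers, 9 were also above the median gene, as were 1 of 10 endothelial, 3 of 10 myeloid, 0 of 8 adrenal cortex and 0 of 3 Schwann cell markers. In bulk tumour RNA, fewer cells of a type and less RNA per cell cannot be told apart.

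The comparison asked which of these proteoglycan genes stood higher or lower in tumours after CXCR4 inhibition. SDC2 stood 1.21-fold higher after BL-8040, with the treated values wholly above the controls. GPC6 and the brighter probe set of GPC2 stood slightly lower, at 0.929 and 0.924 times the control level, with the treated values wholly below the controls. The nearest arrays of GPC6 were 0.01 log2 units apart, and its groups overlapped after median centring. The dimmer probe set of GPC2 differed by 0.10 log2 units in the other direction, with overlapping groups. The remaining 6 genes had groups that overlapped. No member passed the test across all genes: 0 of 9 had a limma adjusted p (Benjamini-Hochberg over all named genes) under 0.05, against 0% of all genes. At an unadjusted limma p under 0.05 there was 1 member of 9, SDC2, which was higher, where 7.72% of all genes had such a p (2.64% higher and 5.08% lower). The groups did not overlap in 1 member higher and 2 lower, against 4.93% and 9.05% of all genes, 14.0% together. Of the 9 differences 6 were below 0, as were 58.5% of all genes, and their median was -0.10 log2 units against -0.02 over all genes.

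**Figure D1:**
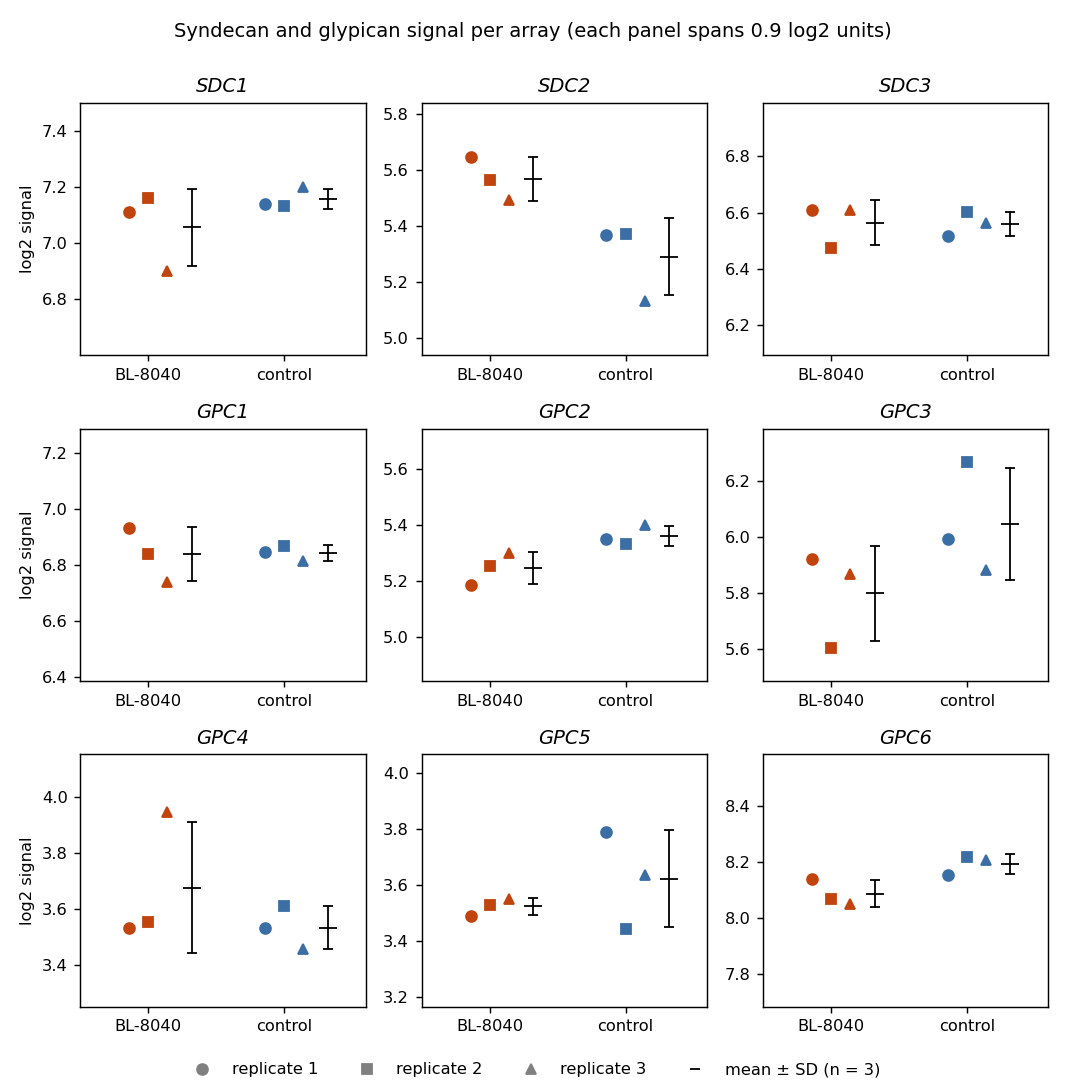
Log2 signal (vertical axis) of the 9 measured syndecan and glypican genes in the BL-8040 and control arrays, 1 symbol per array, with the mean and SD of each group (n = 3) beside the symbols; every panel spans the same number of log2 units. The groups are apart in SDC2, where the BL-8040 values lie between 5.49 and 5.65 and the controls between 5.13 and 5.37, and narrowly in GPC2 and GPC6.

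Among the syndecans, SDC2 is the one best known from mesenchymal cells and from dendritic spines of neurons. Its values were 5.65, 5.56 and 5.49 log2 units in BL-8040 replicates 1, 2 and 3, against 5.37, 5.37 and 5.13 in control replicates 1, 2 and 3. Every treated tumour was thus above every control tumour, and control replicate 3 was the lowest of all. The means were 5.57 ± 0.08 in BL-8040 tumours against 5.29 ± 0.14 in control tumours (SD, n = 3 each), a difference of 0.28 with a 95% interval from 0.08 to 0.48 log2 units. The limma adjusted p was 0.644 (unadjusted p = 0.0125, 303rd of 18417 genes by p). A two-sided exact permutation test gave p = 0.1, below which a design of 3 against 3 cannot go. The difference lay at percentile 98.5 of the differences of all genes. With 1 array left out it stayed between 0.20 (without control replicate 3) and 0.32 (without control replicate 2), and the unadjusted limma p reached 0.0503 without BL-8040 replicate 1.

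SDC1 is the syndecan of epithelia and plasma cells. It was measured at 7.11, 7.16 and 6.90 log2 units in the 3 BL-8040 arrays, against 7.14, 7.13 and 7.20 in the 3 controls. BL-8040 replicate 3 lay below the other 5 arrays, which ran from 7.11 to 7.20. The difference was -0.10 with a 95% interval from -0.29 to 0.09 (limma adjusted p = 0.755), and without BL-8040 replicate 3 it was -0.02.

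SDC3, the neural syndecan, which binds pleiotrophin, had 6.61, 6.47 and 6.61 log2 units after BL-8040 and 6.52, 6.601 and 6.56 in controls. Treated arrays were both the highest and the lowest. The difference of 0.0041 had a 95% interval from -0.16 to 0.17 (limma adjusted p = 0.990), which covers folds from 0.893 to 1.13.

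Among the glypicans, GPC1, a co-receptor for fibroblast growth factors, differed as little. It had 6.93, 6.84 and 6.74 log2 units after BL-8040, against 6.85, 6.87 and 6.81 in controls. The controls lay inside the range of the treated arrays. The difference was -0.0056 with a 95% interval from -0.18 to 0.17 (limma adjusted p = 0.988).

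GPC2 is expressed in the developing nervous system. Its values were 5.19, 5.25 and 5.30 log2 units in the BL-8040 arrays, against 5.35, 5.33 and 5.40 in the controls. All treated tumours were below all controls, by a gap of 0.03 between the nearest arrays. The means were 5.24 ± 0.06 in BL-8040 tumours and 5.36 ± 0.04 in control tumours (SD, n = 3 each), a difference of -0.11 with a 95% interval from -0.27 to 0.04 and a limma adjusted p of 0.683. The exact permutation p was 0.1. A second, dimmer probe set of GPC2 did not share the direction, with 3.99, 3.64 and 3.99 after BL-8040 against 3.55, 4.09 and 3.68 in controls, overlapping groups and a difference of 0.10 ± 0.15 (SE). With the mean of both probe sets the GPC2 difference was -0.0089 and the groups overlapped. The direction of GPC2 is therefore not settled by these arrays.

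GPC6 is a glypican that astrocytes release to promote synapses. It had 8.14, 8.07 and 8.05 log2 units after BL-8040 and 8.15, 8.22 and 8.21 in controls. The highest treated value and the lowest control value were 0.01 apart. The difference was -0.11 with a 95% interval from -0.26 to 0.05 (limma adjusted p = 0.695, exact permutation p = 0.1). The groups overlapped after each array was centred on its median. The difference lay between -0.13 and -0.09 with any 1 array left out. The spread within groups was small, with a pooled SD of 0.04 log2 units, at percentile 5.24 of all genes, whereas limma's moderated error draws such a value towards that of the other genes.

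GPC3 and GPC4 are neighbours on the X chromosome. GPC3, a regulator of Hedgehog and Wnt signalling that is lost in an overgrowth syndrome, was measured at 5.92, 5.61 and 5.87 log2 units after BL-8040, against 5.99, 6.27 and 5.88 in controls. BL-8040 replicate 2 was the lowest array and control replicate 2 the highest, and the groups overlapped in BL-8040 replicate 1 and control replicate 3. Its difference of -0.25 was the largest below 0 among the members, with a 95% interval from -0.52 to 0.02 (limma adjusted p = 0.647, unadjusted p = 0.0698, exact permutation p = 0.2). It was -0.14 without control replicate 2, -0.15 without BL-8040 replicate 2 and -0.33 without control replicate 3, the last with an unadjusted limma p of 0.0339.

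GPC4, which takes part in Wnt signalling and in synapse formation, had 3.53, 3.55 and 3.95 log2 units after BL-8040 and 3.53, 3.61 and 3.46 in controls. BL-8040 replicate 3 stood above the other 5 arrays, and the other treated arrays lay within the range of the controls. The difference of 0.14 (95% interval from -0.12 to 0.40, limma adjusted p = 0.744) was 0.01 without BL-8040 replicate 3.

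GPC5 is the neighbour of GPC6 in the genome. It had 3.49, 3.53 and 3.55 log2 units after BL-8040, against 3.79, 3.44 and 3.64 in controls. The treated values lay inside the range of the controls, whose SD of 0.17 was larger than the 0.03 of the treated arrays. The difference was -0.10 with a 95% interval from -0.31 to 0.11 (limma adjusted p = 0.783), and it was -0.02 without control replicate 1 and -0.19 without control replicate 2. The mean signals of GPC4 and GPC5 were at percentiles 15.0 and 14.6 of all genes, and no detection call was used here, so whether these dim signals are above background is unknown.

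**Figure D2:**
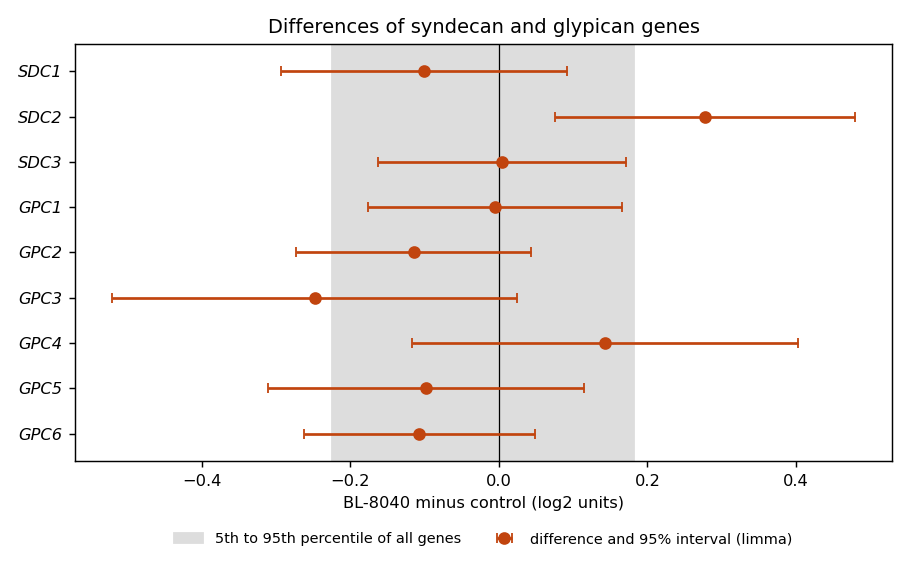
BL-8040 minus control difference in log2 units (horizontal axis) with its 95% interval from limma for each of the 9 genes; the grey band runs from the 5th to the 95th percentile of the differences of all genes. The interval of SDC2, from 0.08 to 0.48, is the only one of the 9 that leaves out 0, and the points of SDC2 and GPC3 lie outside the band.

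The precision of these differences was close to that of the array as a whole. The 95% interval reached between 0.16 (GPC6) and 0.27 (GPC3) log2 units to each side, against 0.20 for the median gene. The differences of all genes ran from -0.22 to 0.18 between percentiles 5 and 95. Within groups, GPC6 and the brighter probe set of GPC2 were among the steadier (pooled SD at percentiles 5.24 and 7.21 of all genes). GPC3 and GPC4 were among the more variable genes (percentiles 87.0 and 84.0). The dimmer probe set of GPC2 was not steady, with an SD of 0.20 in BL-8040 and 0.28 in control arrays.

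**Figure D3:**
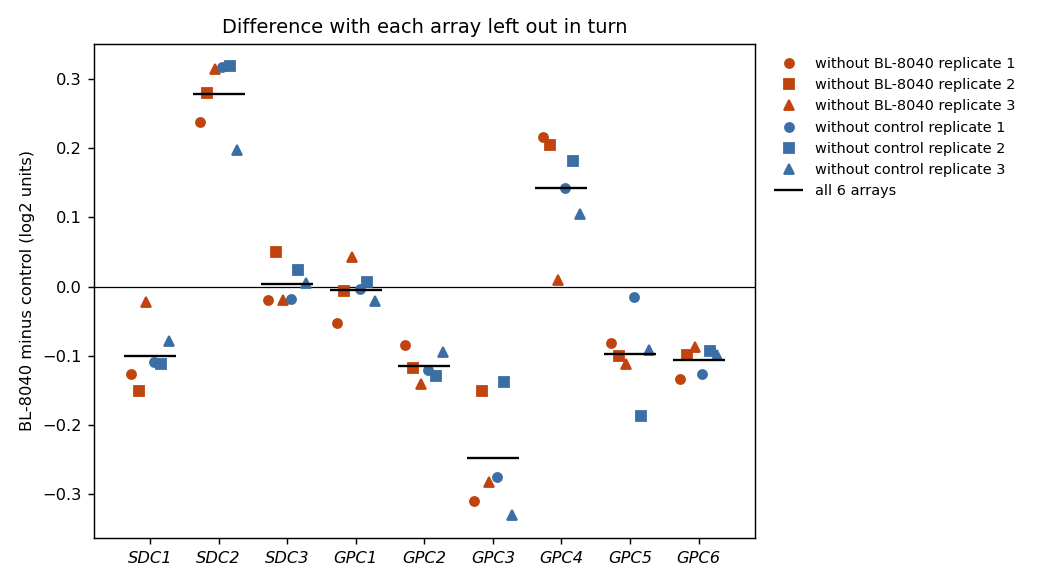
BL-8040 minus control difference in log2 units (vertical axis) of each gene with all 6 arrays (black line) and with each array left out in turn (symbols). SDC2 stays between 0.20 and 0.32, GPC4 lies at 0.01 without BL-8040 replicate 3, and SDC3 and GPC1 fall on both sides of 0.

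The members did not all move in the same direction from tumour to tumour. BL-8040 replicate 3 held the highest value of 2 members and the lowest of 3. It was the lowest array for SDC1, GPC1 and GPC6 and the highest for SDC3 and GPC4. Its mean absolute deviation from the 6-array means was 0.10 log2 units over the members, against 0.06 to 0.09 in the other arrays. Over all genes it was 0.12, against 0.08 to 0.10. Of 36 pairs of members, 6 had a Pearson r over 0.5 across the 6 arrays and 5 had one under -0.5. These counts include the pairs among SDC2, GPC2 and GPC6, whose groups were apart. In those pairs r also takes in the group difference. Pairs of other genes were not counted, so whether these counts are particular to the members is unknown.

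By Pearson r the lowest value was that of SDC1 with GPC4, r = -0.97 (exact permutation p = 0.0194, 0.35 adjusted over the 36 pairs) and Spearman rho = -0.67 (exact permutation p = 0.156, 0.812 adjusted). Without the 2 arrays farthest from the median of SDC1, BL-8040 replicate 3 and control replicate 3, r was 0.11, so the relation rests on those arrays. By rank SDC2 and the brighter probe set of GPC2 were the most opposed, with a fully reversed order over the 6 arrays. The array with the highest SDC2 signal had the lowest signal of this probe set, and so on down to control replicate 3. The dimmer probe set of GPC2 did not follow this order, at 3.99 in BL-8040 replicate 1 and 3.68 in control replicate 3. SDC2 and the brighter probe set of GPC2 also separated the groups, so a pooled r would take in the group difference and is not given for this pair.

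**Figure D4:**
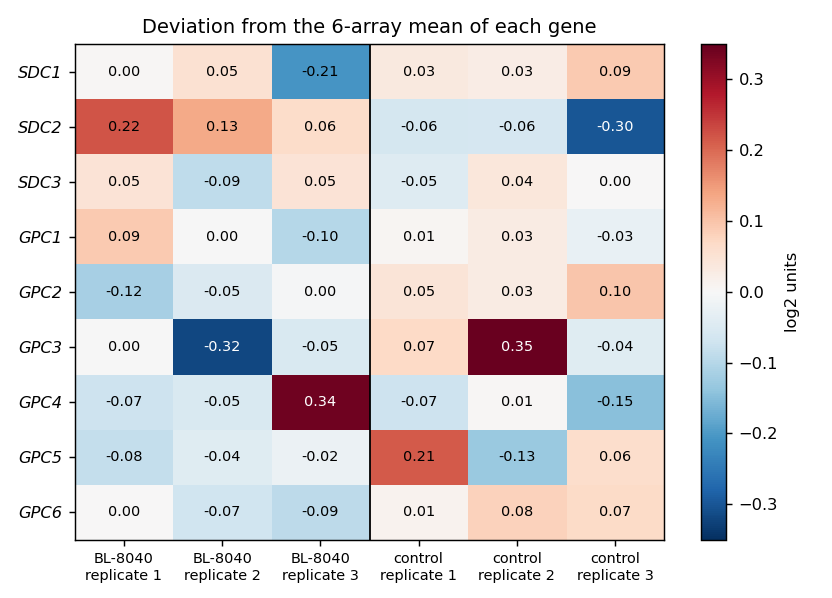
Deviation of each gene from its own mean over the 6 arrays, in log2 units, with genes in rows and arrays in columns (BL-8040 left of the line, control right of it); red is above and blue below the mean. The largest deviations are 0.35 for GPC3 in control replicate 2, 0.34 for GPC4 in BL-8040 replicate 3, -0.32 for GPC3 in BL-8040 replicate 2 and -0.30 for SDC2 in control replicate 3.

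The genes whose profile over the 6 arrays was most like that of a member were looked up among 9205 genes at or above the median signal, by Pearson r. For SDC2, GPC2 and GPC6, whose groups were apart, r over the 6 arrays also takes in the group difference. With so many candidates and 6 arrays high values are found for any profile, so they are given as a description. For SDC2 they were LINC01128 (r = 0.99), a long noncoding transcript, and GMNN (r = 0.99), which encodes geminin, the inhibitor of DNA replication licensing. GMNN had 6.51, 6.46 and 6.41 log2 units after BL-8040, against 6.37, 6.31 and 6.21 in controls. For the brighter probe set of GPC2 they were CRELD1 (r = 0.97) and HAPLN4 (r = 0.96), a link protein of hyaluronan matrix in the brain. For GPC3 they were RELA (r = 0.998), a subunit of NF-kB, and PTPN9 (r = 0.99). For GPC6 they were VPS28 (r = 0.997), a subunit of the endosomal sorting machinery, and MTA1 (r = 0.99), a subunit of a chromatin remodelling complex.

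For SDC1 the most alike were RTL6 and SNORD46 (both r = 0.99), for SDC3 TMEM214 (r = 0.98) and MTF1 (r = 0.97), and for GPC1 DPYSL2 (r = 0.997), a protein of axon growth, and FGFR1OP2 (r = 0.99). For GPC4 they were SSBP3 (r = 0.9997) and PURA (r = 0.996), both highest in BL-8040 replicate 3 as GPC4 was, and for GPC5 PRRG1 and PRPF3 (both r = 0.97). Without BL-8040 replicate 3 all 18 of these r values were at least 0.965.

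Lists of genes that build, modify, cut or use heparan sulfate proteoglycans gave the setting. Of 88 measured genes on 7 such lists (94 listed, members left out), 0 passed the test across all genes. At an unadjusted limma p under 0.05 there were 3 higher and 3 lower genes, where 2.64% and 5.08% of all genes were. The groups did not overlap in 5 genes higher and 10 lower, where 4.93% and 9.05% of all genes were apart. Of the differences, 34 were above and 54 below 0, with a median of -0.02 log2 units as over all genes.

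Enzymes that start and extend the chains were split into 6 higher and 5 lower of 11, with a median difference of 0.01. EXTL2, a glycosyltransferase of the exostosin family, averaged 6.39 ± 0.04 log2 units in BL-8040 tumours against 6.16 ± 0.09 in control tumours (SD, n = 3 each), 1.17-fold with a limma adjusted p of 0.644. XYLT1, the xylosyltransferase that attaches the first sugar, stood at 0.836 times the control level (limma adjusted p = 0.647), and B3GALT6, which adds a galactose of the linker, at 0.899 times (0.683). Both were lowest in BL-8040 replicate 3. Leaving it out gave differences of -0.18 for XYLT1 and -0.10 for B3GALT6, against -0.26 and -0.15 with all arrays.

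Of 17 measured enzymes that modify the chains (18 listed), 5 were higher and 12 lower, with a median difference of -0.02. The sulfotransferase HS3ST3B1 had 6.11 ± 0.51 in BL-8040 tumours against 5.50 ± 0.10 log2 units in control tumours (SD, n = 3 each), and its difference of 0.62 was 0.32 without BL-8040 replicate 3. Its relatives HS3ST2 and HS3ST4 pointed the other way, at 0.850 and 0.881 times the control level, with a limma adjusted p of 0.646 each. Without BL-8040 replicate 3 the HS3ST2 difference was -0.15, against -0.23 with all arrays.

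Among 10 genes for shedding and degradation, 2 were higher and 8 lower (median -0.05), and none had an unadjusted limma p under 0.05. ADAM10, a protease that sheds surface proteins, differed by 0.14 ± 0.09 (SE), and by 0.05 without control replicate 3. NOTUM, a secreted enzyme that removes the lipid of Wnt proteins, differed by -0.13 ± 0.09, and by -0.04 without BL-8040 replicate 3. MMP7, a protease known to shed SDC1, differed by 0.19 ± 0.10 at a dim signal (percentile 4.75 of all genes), and by 0.08 without BL-8040 replicate 3.

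Of 8 listed partners of the syndecan tail 4 were measured, with 2 higher and 2 lower and no unadjusted limma p under 0.05. SDCBP, the gene of syntenin, averaged 9.30 ± 0.03 log2 units in BL-8040 tumours against 9.36 ± 0.03 in control tumours (SD, n = 3 each), a difference of -0.06 (limma adjusted p = 0.828). PRKCA, the kinase that binds the SDC4 tail, differed by 0.11 ± 0.08 (SE), and TIAM1, an exchange factor for RAC1, by 0.05 ± 0.08. Without BL-8040 replicate 3 these differences were 0.05 for PRKCA and 0.0088 for TIAM1.

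Of 19 ligands that bind heparan sulfate 11 were higher, and the list median was 0.02. HBEGF, a heparin-binding ligand of the EGF receptor, was 1.23-fold higher, with 5.46 ± 0.12 log2 units in BL-8040 tumours against 5.16 ± 0.14 in control tumours (SD, n = 3 each). SLIT1, an axon repellent, stood at 0.822 times the control level, with 4.78 ± 0.17 against 5.06 ± 0.13 (SD, n = 3 each), and limma gave both an adjusted p of 0.644. The SLIT1 difference was -0.19 without BL-8040 replicate 3, against -0.28 with all arrays. VEGFA differed by -0.64, and by -0.29 without BL-8040 replicate 3. CXCL12 had 4.20, 4.07 and 4.30 log2 units after BL-8040, against 4.12, 4.13 and 4.06 in controls, with overlapping groups at a dim signal (percentile 21.5 of all genes).

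Receptors that use heparan sulfate were lower in 12 of 17 measured cases (18 listed), with a median difference of -0.06. PTPRF, a receptor phosphatase of the LAR family, averaged 7.38 ± 0.06 log2 units in BL-8040 tumours against 7.62 ± 0.15 in control tumours (SD, n = 3 each), 0.849 times with a limma adjusted p of 0.644. ITGB3, an integrin subunit, was at 0.816 times with the same adjusted p. FGFR4 was 1.13-fold higher (limma adjusted p = 0.646). CXCR4, which BL-8040 blocks, had 3.88, 4.32 and 3.79 log2 units after BL-8040, against 4.35, 4.23 and 3.92 in controls, with overlapping groups. Its signal was dim (percentile 20.6 of all genes) and its pooled SD was at percentile 96.2, so these values say little about a change.

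Of the 10 other genes whose products can carry heparan sulfate, 7 were lower, with a median difference of -0.06 and none at an unadjusted limma p under 0.05. The groups did not overlap in 3 of them, all lower, where 9.05% of all genes were apart in that direction. The groups were also apart in that direction in 3 of 17 receptors and 3 of 19 ligands, and the other way in 1 receptor and 2 ligands. CD44, the hyaluronan receptor, stood at 0.830 times the control level, COL18A1, a collagen of basement membranes, at 0.889 times, and SPOCK2, a testican of the nervous system, at 0.890 times (limma adjusted p between 0.646 and 0.657). The CD44 difference was -0.11 without BL-8040 replicate 3, against -0.27 with all arrays. The SPOCK2 difference was likewise -0.11 against -0.17, and the COL18A1 difference was -0.11 against -0.17 without control replicate 3.

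**Figure D5:**
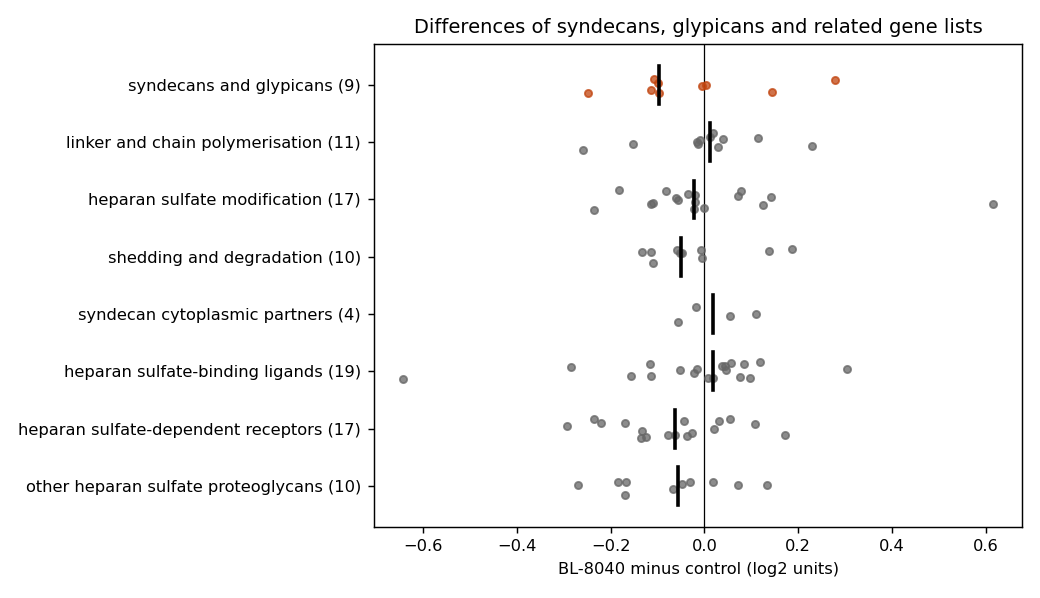
BL-8040 minus control difference in log2 units (horizontal axis) of each measured gene on 8 lists, with the syndecans and glypicans on top in orange, the number of genes measured in brackets and the median of each list as a black bar. The list medians lie between -0.10 and 0.02, and the points farthest out are HS3ST3B1 at 0.62 and VEGFA at -0.64.

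Markers of cell types are given beside these differences. The tumour cells were human and the host was mouse. Whether human probe sets for fibroblast, pericyte, endothelial and myeloid markers read host cells was not measured. Of the 9 neuroblastoma cell markers 8 were lower after BL-8040, with a mean over the list between 8.71 and 9.31 log2 units in the treated arrays and between 9.14 and 9.45 in controls, the lowest being BL-8040 replicate 3. Of the 10 fibroblast and pericyte markers 7 were higher, with a list mean between 8.78 and 9.08 in the treated arrays and between 8.82 and 8.91 in controls. Endothelial markers had list means between 4.93 and 5.14 after BL-8040 and between 4.99 and 5.06 in controls, and myeloid markers between 4.78 and 4.92 after BL-8040 and between 4.78 and 4.87 in controls. On each of these 4 lists the ranges of the list means overlapped between groups. Single markers had groups apart in 1 higher and 3 lower of 10 endothelial markers and in 2 lower of 9 neuroblastoma cell markers. The same held for 1 higher and 1 lower of 10 myeloid markers and for 0 of 10 fibroblast and pericyte markers. Of all genes, 4.93% were apart higher and 9.05% lower. The part of cell make-up in the SDC2, GPC2 and GPC6 differences was not tested.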

How the data were processed

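Tumour RNA (200 ng per tumour) of 6 mice was hybridised to Affymetrix Human Gene 1.0 ST arrays, per the labels' protocols and the series' design text. The authors deposited log2 values in 1 table, as their range (1.08 to 13.2) shows. The submitters' processing notes list Partek 6.6; for background correction, normalization and summarization the method is not given here in the sources used. The platform annotation gave 1 symbol to 19460 probe sets, several to 1754 and none to 12083. The brightest probe set per gene was kept, 18417 genes. Groups of 3 were compared with limma 3.58.1 in R 4.3.3 (lmFit, eBayes, two-sided, no replicate block), with Benjamini-Hochberg adjustment over all genes and a threshold of 0.05. Differences are BL-8040 minus control, and SE is moderated. The design text names 3 mice per group. The fit was run on simulated data as a check of the code. That check required recovery only of changes far larger than those of the members. Alternatives were filters on dim genes, probe set averaging, quantile normalization, median centring, a variance trend, array weights, a replicate block, other thresholds and leaving out arrays. The number of arrays limits the precision. Members and lists were chosen with earlier results of these data known. Genes named were all members, CXCR4, CXCL12, up to 3 per pathway list by smallest p and 2 per member by likeness. No human sequence or position was used here.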

Additional observations from a re-analysis of the deposited data

How the results depend on the processing

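No gene was called in any of the alternatives, and no member passed an adjusted limma p under 0.05 or 0.1; the smallest member value was 0.465 (SDC2, array weights). SDC2 was not fitted where genes below the median signal or a mean log2 of 6 were removed, which left 4 members, 0 at an unadjusted p under 0.05 and 1 (GPC6) with groups apart; of the genes kept, 7.75% to 7.77% had such a p and 14.7% had groups apart. With array weights 1 member, SDC2, was higher at an unadjusted limma p of 0.00613 and 1, GPC3, was lower at 0.0475. The share of all genes under 0.05 was not counted with array weights. At a threshold of 0.01, added after the data were seen, 0 members were higher, and the share of all genes was not counted. Leaving out 1 array gave 0 to 1 members higher and 0 to 1 lower at an unadjusted limma p under 0.05. Of all genes, 4.91% to 9.98% had such a p in these fits. The groups were apart in 3 to 5 members (5 without BL-8040 replicate 2: SDC1, GPC2 and GPC6 lower, SDC2 and SDC3 higher). There, 3 arrays against 2 set 21.5% to 29.5% of all genes apart, against 14.0% with all arrays. With median centring 2 members had groups apart (GPC6 no longer), where 12.0% of all genes did, and with the mean of probe sets 2 (GPC2 no longer), where 14.0% did. SDC1, SDC2, GPC3, GPC4, GPC5 and GPC6 kept their sign in every alternative in which they were fitted. SDC3 turned to -0.0034 with quantile normalization and -0.0043 with array weights, and lay between -0.019 and 0.050 with 1 array left out. GPC1 turned to 0.027 with array weights and lay between -0.053 and 0.043 with 1 array left out. The dimmer probe set of GPC2 gave 0.10, a comparison added after the data were seen. The labels do not state whether same-numbered samples were paired. Deviations of same-numbered arrays correlated at -0.04, 0.02 and 0.08. These values cannot decide the question, as no other array pairs were set beside them. A fit with the replicate block called 0 members, and SDC2 stayed the 1 member higher at an unadjusted limma p under 0.05. No detection call was available, which limits GPC4 and GPC5 most.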
